A study of Mus musculus with 6 samples.

Results

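The Fc gamma receptors bind the constant part of immunoglobulin G (IgG) and let macrophages take up or respond to what antibodies have coated. The 5 genes described here, Fcgr1, Fcgr2b, Fcgr3, Fcgr4 and Fcgrt, are the rows of the deposited expression table whose Ensembl identifiers map to those mouse symbols. All 5 were found among the 57180 identifiers of the table, and all 5 were among the 11753 genes tested, that is, genes reaching 1 TPM in 3 or more of the 6 libraries. The study sequenced RNA of wild-type mouse bone marrow-derived macrophages after 5 days in osteoclast-inducing culture, either with Visomitin (3 libraries, Visomitin 1 to 3) or without it (3 libraries, control 1 to 3). Visomitin, also called SkQ1, is an antioxidant that accumulates in mitochondria. The sources used here do not give its dose, the differentiation factors added or the strain, age and number of mice. Nor do they say whether libraries of a group came from separate mice or cultures, so the spread behind each p-value may be technical.

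IgG receptors of mouse macrophages come in activating and inhibitory forms. The activating receptors encoded by Fcgr1, Fcgr3 and Fcgr4 signal through a shared adaptor, the FcR gamma chain encoded by Fcer1g, whose ITAM motif recruits the kinase SYK; the inhibitory receptor encoded by Fcgr2b carries an ITIM motif in its own tail, which recruits the phosphatase SHIP1 (Inpp5d) and dampens the activating signal. The balance between both kinds sets the threshold at which a macrophage responds to immune complexes, and FcR gamma chain signalling also supports osteoclast formation. Fcgrt encodes FcRn, a receptor related to MHC class I that pairs with beta-2-microglobulin (B2m) inside the cell and returns IgG and albumin from endosomes, so it is neither activating nor inhibitory.

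The inhibitory receptor gene rose most. Fcgr2b was at 74.5 ± 3.58 TPM with Visomitin and 38.5 ± 2.48 TPM in control (SD, n = 3 each), a 1.91-fold rise, and Fcgr3 rose 1.31-fold. Fcgr4, Fcgrt and Fcgr1 did not pass the test, with log2 fold changes of 0.29, 0.46 and -0.24. In bulk RNA, more cells that express a receptor and more receptor RNA in each cell cannot be told apart. TPM is a share of each library's transcripts, scaled by transcript length. Fold changes are Visomitin over control after adding 1 TPM and taking log2, so changes of low genes are understated, and adjusted p-values are from limma with Benjamini-Hochberg adjustment over all 11753 genes. Of the 5 receptor genes 2 rose and 0 fell, with a median log2 fold change of 0.39, where 2.08% of all tested genes rose, 5.03% fell, and the median was -0.03. At an unadjusted limma p under 0.05, 4 of the 5 were higher and 0 lower, beside 9.12% higher and 15.2% lower among all tested genes. Among all tested genes 244 rose and 591 fell; after median-ratio scaling these were 481 and 689, and after quantile normalization 559 and 651. Both receptor calls stood under these scalings.

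**Figure D1:**
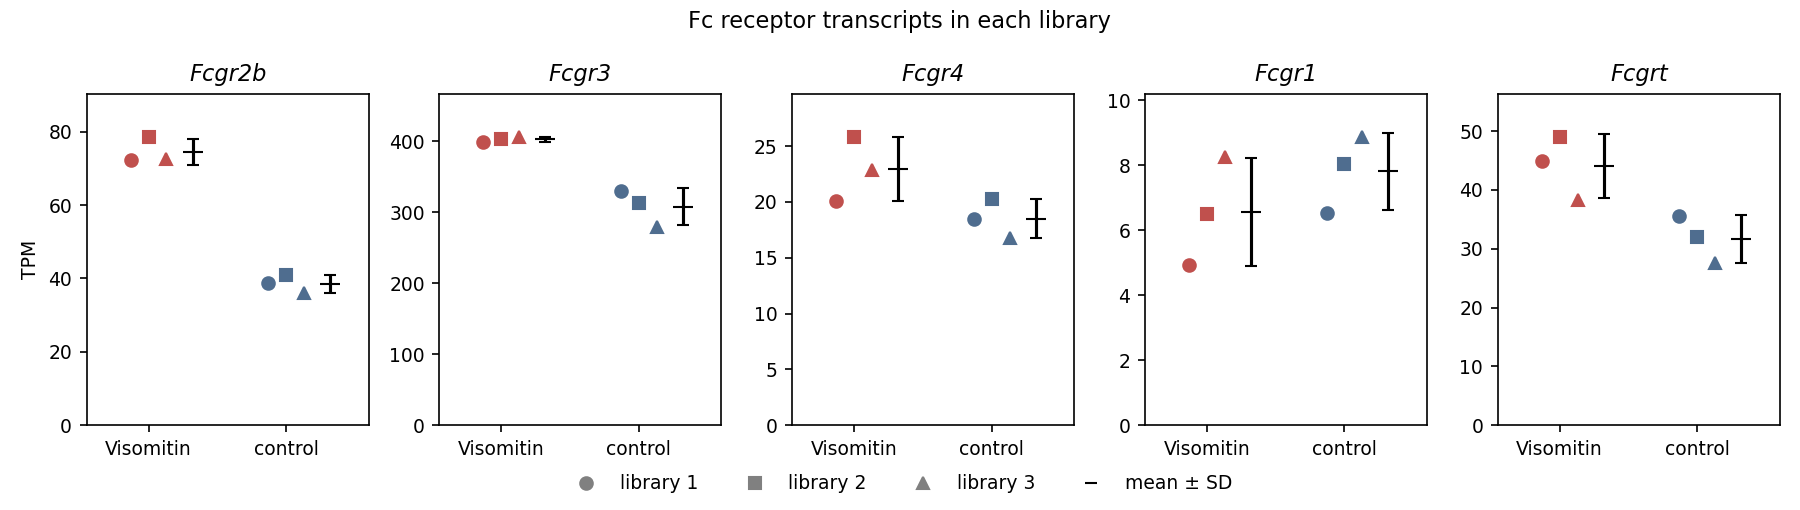
TPM of each receptor gene (vertical axes, each from 0) in the 3 Visomitin and the 3 control libraries; points are libraries and the bar is the mean ± SD. For Fcgr2b the Visomitin libraries lie at 72.24 to 78.67 TPM and the control libraries at 35.95 to 40.9 TPM, while for Fcgr4 and Fcgr1 the groups overlap.

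Fcgr2b (ENSMUSG00000026656), the inhibitory receptor gene, was at 72.24, 78.67 and 72.72 TPM in Visomitin 1 to 3 and at 38.77, 40.9 and 35.95 TPM in control 1 to 3. Every Visomitin library lay above every control library, and the spread inside each group was small beside the distance between them. The log2 fold change was 0.93 (SE 0.09, limma adjusted p = 0.00079). By fold, Fcgr2b ranked 47 among the 244 genes that rose, and by p-value 63 among all 11753 tested. The call held under each of the 16 alternative settings, with log2 fold changes from 0.87 to 0.98 and adjusted p from 8.16e-05 to 0.0085.

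Fcgr3 (ENSMUSG00000059498) encodes the low-affinity activating receptor and was the most abundant of the family. It was at 399.49, 403.86 and 406.67 TPM in Visomitin 1 to 3 and at 330.61, 313.74 and 279.26 TPM in control 1 to 3. The Visomitin libraries were nearly level with each other and all above the control libraries, which varied more. The log2 fold change was 0.39 (SE 0.08, limma adjusted p = 0.028), rank 230 by fold among the 244 genes that rose. The call was lost with no filter on low values (adjusted p = 0.068), without the variance trend (0.072), and when Visomitin 2 (0.099), Visomitin 3 (0.067), control 1 (0.062), control 2 (0.079) or control 3 (0.10) was left out. The log2 fold change stayed between 0.32 and 0.46 over all alternatives.

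Fcgr2b and Fcgr3 share sequence, which bears on how reads are split between them. In the GENCODE M21 mouse transcripts (GRCm38), 22.2% of the distinct 31-base words of the Fcgr2b coding sequences also occur in those of Fcgr3, and 29.1% of those of Fcgr3 occur in those of Fcgr2b. Over whole transcripts the shares were 6.42% and 14.3%. No 31-base word was shared between any other pair of the 5 genes. The longest identical stretch of coding sequence, printed to show what a read from either gene can look like, is 129 bases long and runs from base 278 to 406 of the 1023-base Fcgr2b coding sequence and from base 263 to 391 of the 804-base Fcgr3 coding sequence, both counted from the start codon of the longest coding form:
Fcgr2b and Fcgr3 shared stretch: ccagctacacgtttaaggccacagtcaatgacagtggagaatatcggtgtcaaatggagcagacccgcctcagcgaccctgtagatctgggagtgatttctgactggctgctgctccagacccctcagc
In the longest Fcgr2b form the shared words lay between coding bases 199 and 634, so bases on either side hold words found in only 1 of the pair. The submitters' processing notes name HISAT2 and StringTie but not how reads matching both genes were assigned, so the levels of both genes, and the difference between their fold changes, carry that uncertainty.

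Fcgr4 (ENSMUSG00000059089), an activating receptor of intermediate affinity, was at 20.11, 25.85 and 22.85 TPM in Visomitin 1 to 3 and at 18.5, 20.26 and 16.73 TPM in control 1 to 3. Visomitin 1 lay just under control 2, so the groups overlapped. The log2 fold change was 0.29 (SE 0.12, limma adjusted p = 0.19). It passed when libraries were weighted by their fit (array weights; 0.39, adjusted p = 0.020) and under no other setting.

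Fcgr1 (ENSMUSG00000015947), the high-affinity receptor, was the only member with a log2 fold change below 0 and the least abundant. It was at 4.93, 6.5 and 8.24 TPM in Visomitin 1 to 3 and at 6.53, 8.04 and 8.87 TPM in control 1 to 3. The groups overlapped, and the lowest and highest Visomitin libraries differed by more than the group means did. The log2 fold change was -0.24 (SE 0.19, limma adjusted p = 0.48), between -0.39 without Visomitin 3 and -0.07 without Visomitin 1.

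Fcgrt (ENSMUSG00000003420), which encodes FcRn, was at 44.91, 49.05 and 38.26 TPM in Visomitin 1 to 3 and at 35.57, 32.03 and 27.49 TPM in control 1 to 3. All Visomitin libraries were above all control libraries, by a margin of less than the SD of either group. The log2 fold change was 0.46 (SE 0.13), larger than that of Fcgr3, but its spread was larger too and it did not pass (limma adjusted p = 0.071). With array weights it passed (0.53, adjusted p = 0.012). Fcgr2b, Fcgr3 and Fcgrt were thus the 3 of 5 receptor genes whose groups did not overlap and were higher with Visomitin, a pattern seen for 11.9% of all tested genes; 18.4% were lower without overlap, and 30.4% did not overlap in either direction.

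**Figure D2:**
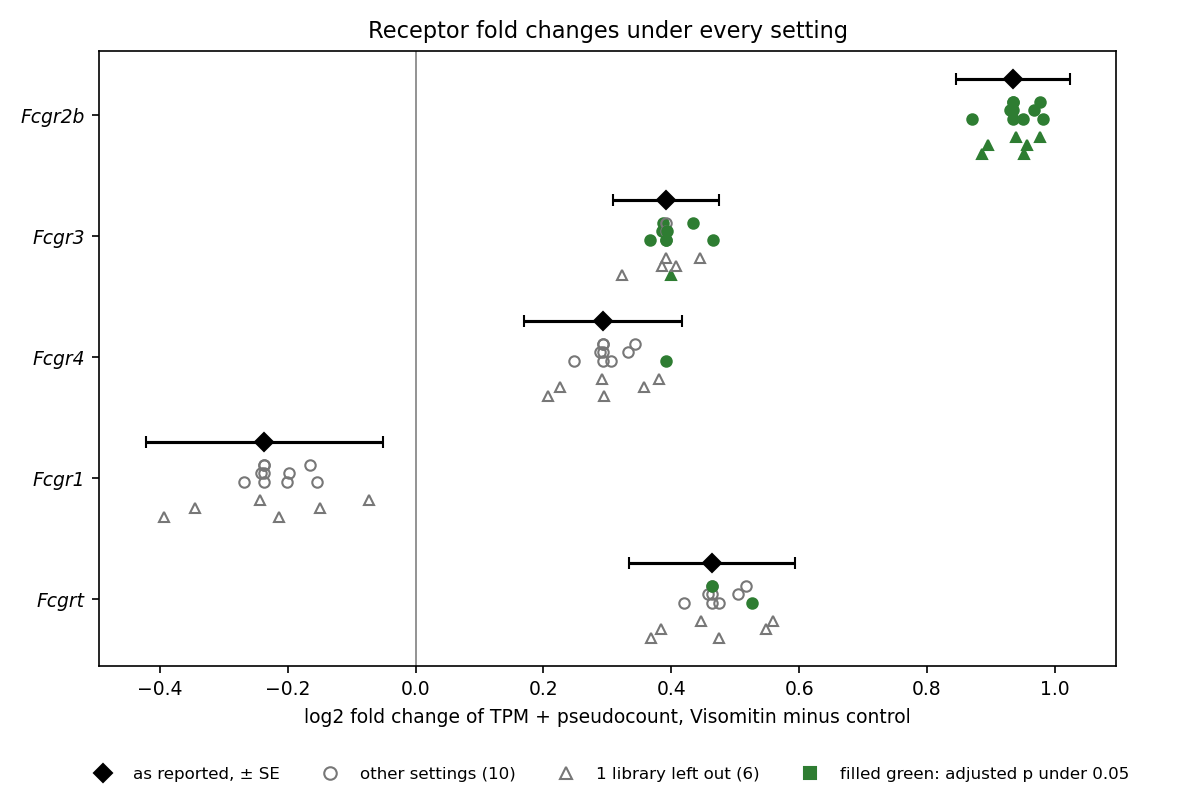
Log2 fold change (Visomitin minus control, horizontal axis) of each receptor gene as reported (diamond, ± SE), under 10 other settings (circles) and with 1 library left out (triangles), green where the limma adjusted p is under 0.05. Fcgr2b is green throughout at 0.87 to 0.98, Fcgr3 passes in part of the settings, and Fcgr1 lies below 0 in all of them.

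The order of levels was the same in both groups. Fcgr3 was highest, followed by Fcgr2b, Fcgrt, Fcgr4 and Fcgr1, and TPM, being per length, allows this comparison between genes. In Visomitin libraries every neighbouring pair in that order was separated by more than its spread, and the smallest ratio of means was that of Fcgr2b (at least 72.24 TPM) to Fcgrt (at most 49.05 TPM), at 1.69. In control libraries Fcgr2b (at least 35.95 TPM) and Fcgrt (at most 35.57 TPM) nearly touched. The other neighbours did not overlap, with Fcgrt at 27.49 TPM or more and Fcgr4 at 20.26 TPM or less. Fcgr3 was 5.41 times as abundant as Fcgr2b with Visomitin and 7.99 times in control. Together the 4 receptors Fcgr1, Fcgr2b, Fcgr3 and Fcgr4 summed to 496.77, 514.88 and 510.48 TPM in Visomitin 1 to 3 and to 394.41, 382.94 and 340.81 TPM in control 1 to 3.

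Set against the activating receptors, Fcgr2b took a larger part with Visomitin. It made up 14.5%, 15.3% and 14.2% of the summed TPM of the 4 receptors in Visomitin 1 to 3 and 9.83%, 10.7% and 10.5% in control 1 to 3. For each TPM of Fcgr2b there were 5.88, 5.54 and 6.02 TPM of the activating receptors Fcgr1, Fcgr3 and Fcgr4 in Visomitin 1 to 3, against 9.17, 8.36 and 8.48 TPM in control 1 to 3. The groups did not overlap in either measure. Because both genes of a ratio come from the same library, a single scaling factor per library cannot move it. Quantile normalization can, and the ratios were not computed after it. The log2 ratio of Fcgr2b to the summed activating receptors was -2.54 ± 0.06 with Visomitin and -3.12 ± 0.07 in control (SD, n = 3 each), a difference of 0.58 (SE 0.05) that lay between 0.54 and 0.60 when any 1 library was left out. This sum is carried by Fcgr3, which made up 78.4% to 80.4% of the 4 receptors in Visomitin libraries and 81.9% to 83.8% in control libraries.

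Each activating receptor gave the same direction. Fcgr2b stands in every ratio and had the largest fold change of the family, so this agreement is not separate evidence. The log2 ratio of Fcgr2b to Fcgr3 was -2.44 ± 0.07 with Visomitin and -3.00 ± 0.08 in control, a difference of 0.56 (SE 0.06). The log2 ratio to Fcgr4 was 1.71 ± 0.12 with Visomitin and 1.06 ± 0.05 in control, a difference of 0.65 (SE 0.08). The log2 ratio to Fcgr1 was 3.54 ± 0.37 with Visomitin and 2.31 ± 0.28 in control, a difference of 1.23 (SE 0.27). In all 3 ratios the Visomitin libraries were above all control libraries, and the widest spread was that of Fcgr1, the lowest gene. Permuting the libraries between groups (exact test, two-sided) gave p = 0.1 for each ratio (0.1 adjusted over the 3 comparisons), the smallest that 3 against 3 libraries allow, so this test cannot reach 0.05. Since Fcgr2b stands in every ratio, all of them carry the uncertainty of the reads it shares with Fcgr3.

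**Figure D3:**
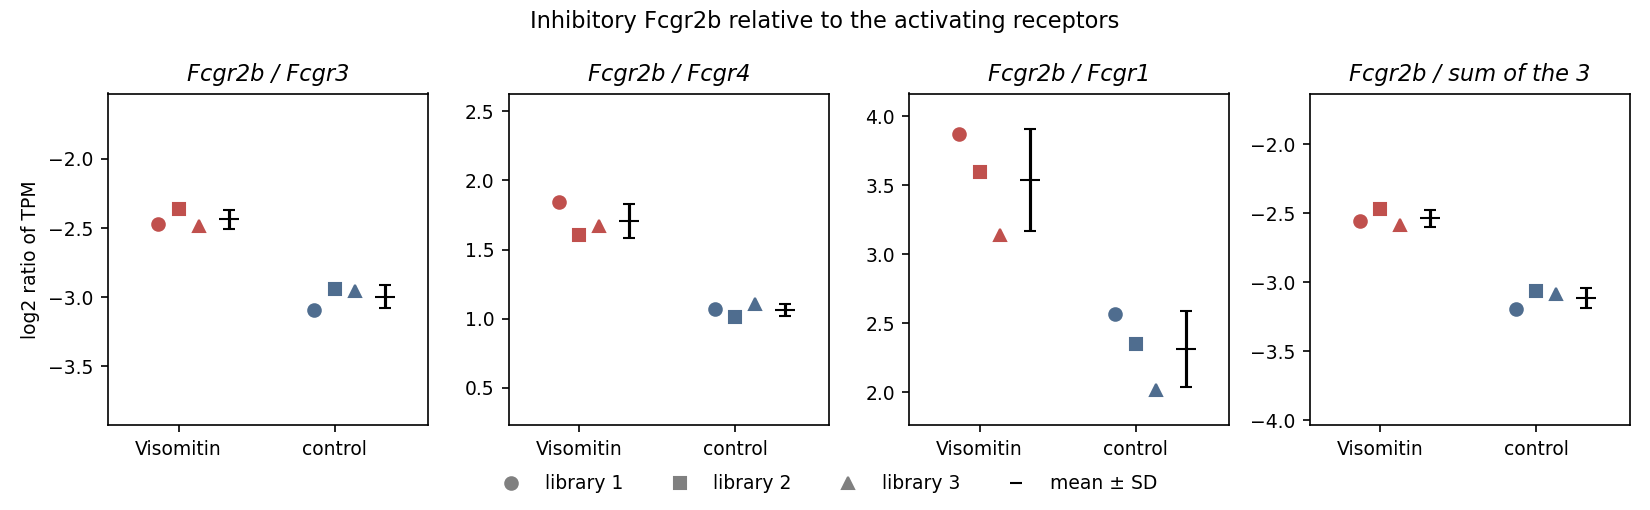
Log2 ratio of Fcgr2b TPM to that of each activating receptor gene and to their sum (vertical axes, all spanning the same range of log2 units) in each library, with the group mean ± SD. In all 4 panels the Visomitin libraries lie above the control libraries; for the sum the means are -2.54 and -3.12.

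Markers of cell types were read beside the receptor values. All 10 osteoclast markers fell with Visomitin, where 5.03% of all tested genes fell and 2.08% rose. Their median log2 fold change was -2.04, and their summed level was 2938 to 3531 TPM with Visomitin and 11171 to 12121 TPM in control. Of 8 macrophage markers 2 rose, Mrc1, the mannose receptor (0.61, limma adjusted p = 0.012), and Mertk, a receptor for dying cells (0.57, adjusted p = 0.022), 0 fell, and the median was 0.22; without Visomitin 2 neither passed (adjusted p of 0.054 and 0.096). Without control 3 neither passed either (0.051 and 0.081), and without control 1 (0.053) or control 2 (0.0645) or with no filter on low values (0.059) Mertk did not. Of the 8, 7 had a log2 fold change above 0 and 1 below. The gene below 0, Cd68, is named here after its values were seen. It was at 1628 ± 112 TPM with Visomitin and 1870 ± 57.0 TPM in control and did not pass (-0.20, limma adjusted p = 0.16). The summed level of the 8 markers, mostly Lyz2, was 42090 to 47327 TPM with Visomitin and 36414 to 40728 TPM in control. The part of this shift in the receptor values was not tested.

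B cells carry Fcgr2b as their Fc gamma receptor, so their markers were looked at. Cd79a and Pax5 were listed at 0 in all 6 libraries, and Ms4a1 reached 0.06 TPM in control 3 and was listed at 0 elsewhere. Cd79b was at 1.65, 0.9 and 0.8 TPM in Visomitin 1 to 3 and at 0.51, 0.3 and 0.33 TPM in control 1 to 3. Ighm, the immunoglobulin mu chain, was at 2.97, 5.62 and 4.05 TPM in Visomitin 1 to 3 and at 1.82, 2.2 and 1.2 TPM in control 1 to 3 (log2 fold change 0.91, limma adjusted p = 0.0497), and it missed the threshold without Visomitin 2, Visomitin 3 or any of the control libraries (0.062 to 0.16). It also missed the threshold with no filter on low values (0.165), without the variance trend (0.057) and with a pseudocount of 0.1 TPM (0.053) or 5 TPM (0.052). The B cell markers summed to 4.62 to 6.52 TPM with Visomitin and 1.59 to 2.5 TPM in control. Of the 6 neutrophil markers 4 were listed at 0 throughout, among them Ly6g and Mpo, and their sums overlapped, at 19.53 to 23.81 TPM with Visomitin and 18.28 to 25.41 TPM in control. Markers of T and NK cells, of mast cells and basophils, of dendritic cells and of endothelium summed to at most 2.3 TPM each in any library. The 6 stromal markers summed to 72.93 to 160.85 TPM with Visomitin and 109.44 to 312.89 TPM in control. None of the 4 tested passed, beside 7.10% of all tested genes called in either direction.

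Of 22 genes that carry the activating signal, 0 rose, 3 fell and 19 did not pass (median log2 fold change 0.02, against -0.03 for all tested genes), beside 7.10% of all tested genes called in either direction. At an unadjusted p under 0.05, 3 were higher and 4 lower, beside 9.12% higher, 15.2% lower and 24.4% in either direction among all tested genes. Fcer1g, the adaptor that the activating receptors need, was at 1262.1, 1018 and 967.03 TPM in Visomitin 1 to 3 and at 962.72, 989.89 and 951.7 TPM in control 1 to 3. Visomitin 1 stood above all others while Visomitin 3 lay among the controls, and the gene did not pass (0.15, limma adjusted p = 0.42). There were 2.97, 2.33 and 2.21 TPM of Fcer1g for each TPM of activating receptor in Visomitin 1 to 3 and 2.71, 2.89 and 3.12 in control 1 to 3, so the groups overlapped. Src, a kinase of the family that phosphorylates ITAM motifs and one that osteoclasts need to resorb bone, fell to 54.7 ± 8.50 TPM with Visomitin, against 97.3 ± 5.01 TPM in control (SD, n = 3 each; -0.83, adjusted p = 0.0063). Pik3cb, a catalytic subunit of phosphoinositide 3-kinase, fell to 11.2 ± 1.07 TPM with Visomitin, against 19.1 ± 0.88 TPM in control (-0.72, adjusted p = 0.0082). Lat2, a membrane adaptor, fell to 108.8 ± 14.8 TPM with Visomitin, against 163.6 ± 9.91 TPM in control (-0.59, adjusted p = 0.019); it missed the threshold without Visomitin 2 or any of the control libraries (0.057 to 0.075).

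Among 12 genes of the inhibitory branch 0 passed limma's test, beside 7.10% of all tested genes, and the median was -0.03. An unadjusted p under 0.05 was seen for 3, beside 24.4% of all tested genes. After median-ratio scaling 1 passed, after quantile normalization 2 and with array weights 3. The most abundant was Ptpn6, the phosphatase SHP-1, at 338 ± 18.3 TPM with Visomitin and 341 ± 25.8 TPM in control (SD, n = 3 each; -0.01, limma adjusted p = 0.97), a difference smaller than the spread between libraries whose sign changed after median-ratio scaling (0.03). Inpp5d, which encodes the phosphatase SHIP1 and is named here after its values were seen, was at 157.14, 303.98 and 257.82 TPM in Visomitin 1 to 3 and at 289.4, 251.96 and 240.44 TPM in control 1 to 3. Visomitin 1 was the lowest library and Visomitin 2 the highest, so the spread inside the Visomitin group exceeded the difference between groups (-0.17, SE 0.22, adjusted p = 0.68).

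Of 20 genes for the uptake of IgG-coated particles, 1 rose, 2 fell and 17 did not pass (median -0.04), where 2.08% of all tested genes rose and 5.03% fell. Rac2, a GTPase of haematopoietic cells that drives actin assembly, fell to 125 ± 9.24 TPM with Visomitin, against 205 ± 16.7 TPM in control (SD, n = 3 each; -0.71, limma adjusted p = 0.0041). Myo10, an unconventional myosin, fell (-0.67, adjusted p = 0.013; 0.053 without control 1 and 0.051 without control 2). Marcks, an actin-binding substrate of protein kinase C, rose to 55.5 ± 4.40 TPM with Visomitin, against 41.0 ± 2.81 TPM in control (0.43, adjusted p = 0.039), and passed without Visomitin 1 but not without any other library (0.091 to 0.14). Cfl1, the actin-severing cofilin and the most abundant of the list, did not pass (-0.15, adjusted p = 0.24).

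**Figure D4:**
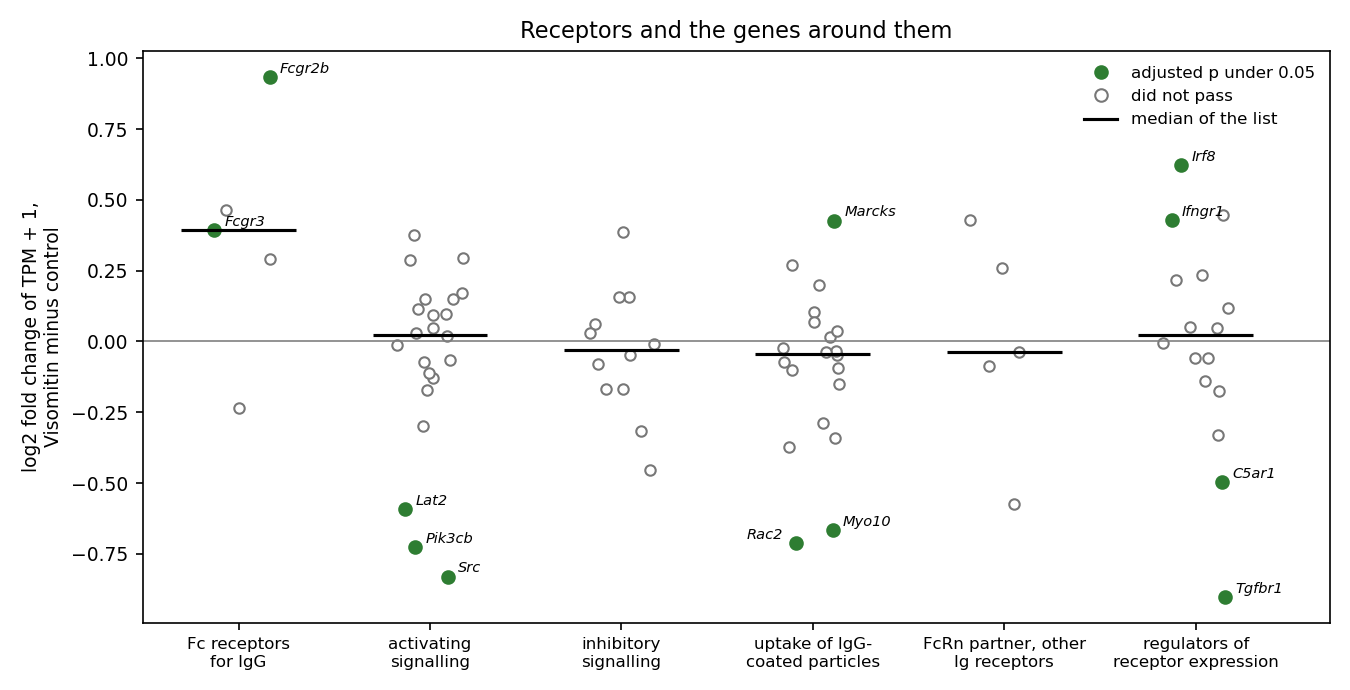
Log2 fold change (Visomitin minus control, vertical axis) of each tested gene in the receptor family and in 5 lists of genes around it; green points passed an adjusted p of 0.05 and are named, black lines are medians. The receptor median is 0.39, and the list medians lie between -0.04 and 0.02.

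Of 13 genes for the FcRn partner and further immunoglobulin-binding proteins, 5 passed the filter on low values. Of these 0 passed limma's test, beside 7.10% of all tested genes. An unadjusted p under 0.05 was seen for 2, B2m and Fcrl1, beside 24.4% of all tested genes. The receptors for IgE (Fcer1a, Ms4a2, Fcer2a), for IgM (Fcmr, Fcamr) and for polymeric immunoglobulin (Pigr) were listed at 0 in all 6 libraries. B2m, the partner of FcRn, was at 3435 ± 351 TPM with Visomitin and 2860 ± 165 TPM in control (SD, n = 3 each; 0.26, limma adjusted p = 0.14); the groups did not overlap, and it passed with array weights (adjusted p = 0.036). There were 84.6, 69.4 and 81.0 TPM of B2m for each TPM of Fcgrt in Visomitin 1 to 3 and 78.1, 95.2 and 100.1 TPM in control 1 to 3, so the groups overlapped. Fcrl1, an Fc receptor-like gene known from B cells and named here after its values were seen, was at 5.66, 5.43 and 4.11 TPM in Visomitin 1 to 3 and at 7.37, 8.23 and 8.36 TPM in control 1 to 3, a direction opposite to that of Fcgr2b (-0.57, adjusted p = 0.051).

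Among 16 genes known to regulate Fc gamma receptor expression, 2 rose, 2 fell and 12 did not pass (median 0.02), beside 2.08% of all tested genes that rose and 5.03% that fell. Irf8, a transcription factor of macrophages that restrains osteoclast formation, rose to 88.8 ± 5.25 TPM with Visomitin, against 57.6 ± 6.61 TPM in control (SD, n = 3 each; 0.62, limma adjusted p = 0.012; 0.056 without Visomitin 2). Ifngr1, a chain of the interferon gamma receptor, rose to 223 ± 7.23 TPM with Visomitin, against 166 ± 15.1 TPM in control (0.43, adjusted p = 0.027), and passed without Visomitin 1 but not without any other library (0.056 to 0.095). Tgfbr1, a receptor for TGF-beta, fell to 13.6 ± 0.55 TPM with Visomitin, against 26.4 ± 3.37 TPM in control (-0.90, adjusted p = 0.0037). C5ar1, the receptor for complement C5a, which shifts the receptor balance toward activation in mouse macrophages, fell to 293 ± 38.1 TPM with Visomitin, against 413 ± 54.0 TPM in control (-0.50, adjusted p = 0.048); it passed without Visomitin 3 and missed the threshold without any other library (0.075 to 0.15). Spi1, which encodes the macrophage factor PU.1 and was the most abundant of the list, was at 523 ± 52.9 TPM with Visomitin and 588 ± 8.13 TPM in control (-0.17, adjusted p = 0.28). With no filter on low values Lat2, Marcks, Ifngr1 and C5ar1 also missed the threshold (0.066, 0.076, 0.066 and 0.15), and without the variance trend Marcks, Ifngr1 and C5ar1 did (0.068, 0.065 and 0.090). C5ar1 also missed it after quantile normalization (0.063) and with a pseudocount of 0.1 TPM (0.0501).

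Fcgr2b, Fcgr4 and Fcgr3 lie side by side on mouse chromosome 1 in the RefSeq annotation (GRCm38.p6), with no other tested named gene between them, Fcgr1 is on chromosome 3 and Fcgrt on chromosome 7. Of the 5 nearest tested named genes on each side of the cluster, 0 passed limma's test, beside 7.10% of all tested genes. An unadjusted p under 0.05 was seen for 1 of them, Nos1ap, beside 24.4% of all tested genes. The median log2 fold change of these neighbours was -0.11. On the far side of Fcgr2b came Fcrlb, an Fc receptor-like gene (0.43, limma adjusted p = 0.26), Dusp12 (-0.28), Atf6 (-0.07), Olfml2b (-0.37) and Nos1ap (-0.73, adjusted p = 0.11). Nos1ap passed with array weights (0.017) and without control 3 (-1.03, 0.011), and Fcrlb passed with array weights (0.048). On the far side of Fcgr3 came Cfap126 (0.48, adjusted p = 0.30), Sdhc (-0.15), Pcp4l1 (0.14), Tomm40l (-0.19) and the adaptor gene Fcer1g (0.15).

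**Figure D5:**
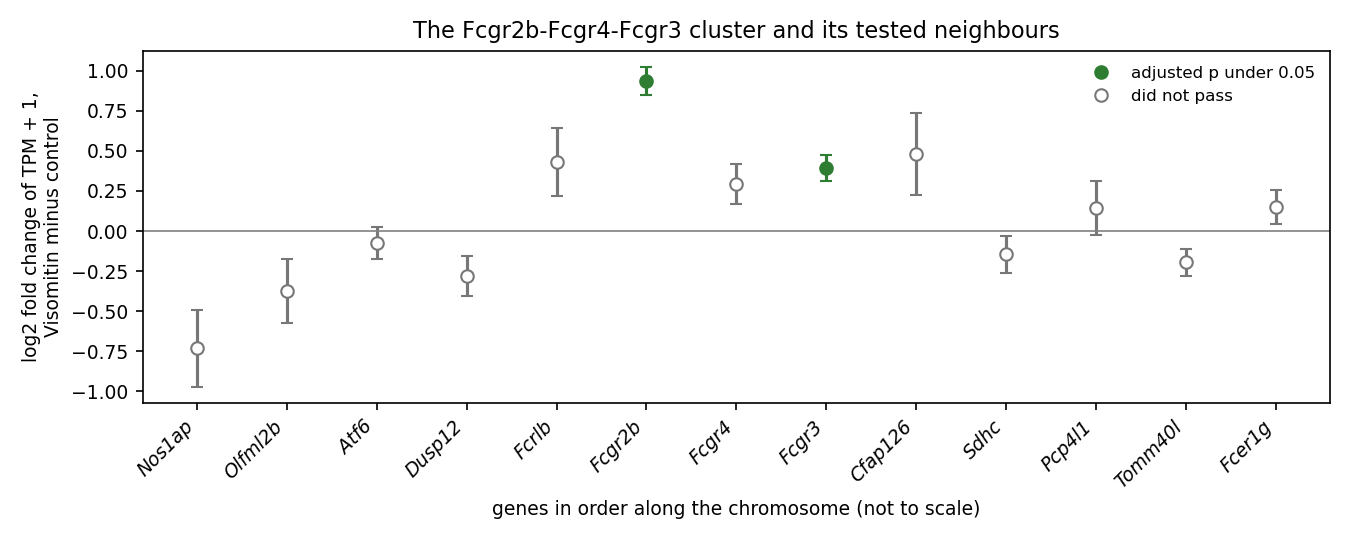
Log2 fold change (Visomitin minus control, vertical axis, ± SE) of Fcgr2b, Fcgr4, Fcgr3 and the 5 nearest tested named genes on each side, in chromosome order and not to scale. Fcgr2b (0.93) and Fcgr3 (0.39) are the genes that passed the test.

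Of the 4 classical receptor genes, Fcgr2b and Fcgr3 rose, and Fcgr4 and Fcgr1 did not pass. Their upstream sequences are printed for reference. Each is the 250 bases before the first annotated RefSeq start site, read 5′ to 3′ on the gene's strand, with coordinates in GRCm38.p6, whereas the sources used here do not name the authors' build. Capitals mark matches to 4 motifs searched on both strands: TTCNNNGAA, the site bound by STAT factors (GAS), GAGGAA, a core bound by PU.1, TGANTCA, an AP-1 site, and an interferon regulatory factor core, GAAA, any 2 bases and GAAA.
Fcgr2b (chr1:170976072-170976321, minus strand): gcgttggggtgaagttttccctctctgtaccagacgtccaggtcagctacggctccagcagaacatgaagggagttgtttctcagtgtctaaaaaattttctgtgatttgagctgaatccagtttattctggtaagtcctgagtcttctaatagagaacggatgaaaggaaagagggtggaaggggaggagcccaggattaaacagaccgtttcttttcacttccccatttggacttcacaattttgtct
Fcgr3 (chr1:171059404-171059653, minus strand): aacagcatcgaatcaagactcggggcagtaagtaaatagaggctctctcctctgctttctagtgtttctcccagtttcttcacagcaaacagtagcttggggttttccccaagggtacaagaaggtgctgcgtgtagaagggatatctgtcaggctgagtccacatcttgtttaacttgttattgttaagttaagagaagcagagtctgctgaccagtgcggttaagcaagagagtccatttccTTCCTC
Fcgr4 (chr1:171018676-171018925, plus strand): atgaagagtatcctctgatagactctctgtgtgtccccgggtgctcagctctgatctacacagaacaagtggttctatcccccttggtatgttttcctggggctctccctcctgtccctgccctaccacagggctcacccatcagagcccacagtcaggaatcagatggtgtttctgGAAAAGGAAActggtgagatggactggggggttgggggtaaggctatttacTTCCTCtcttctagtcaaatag
Fcgr1 (chr3:96293970-96294219, minus strand): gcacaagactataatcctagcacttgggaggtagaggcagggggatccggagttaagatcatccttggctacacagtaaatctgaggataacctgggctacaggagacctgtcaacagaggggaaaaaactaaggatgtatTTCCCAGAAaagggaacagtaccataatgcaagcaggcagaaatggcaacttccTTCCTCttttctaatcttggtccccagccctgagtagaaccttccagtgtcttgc
Fcgr1 held a GAS match at 109 to 101 bases before the start and a PU.1 core at 55 to 50. Fcgr4 held a PU.1 core at 22 to 17 bases and an interferon regulatory factor core at 73 to 64 bases before the start, and Fcgr3 a PU.1 core at 6 to 1. None of the 4 letter patterns occurs in the Fcgr2b window, nor in that of Fcgrt, and no window of the family holds the AP-1 pattern. Of 32851 mouse promoter windows of this length, 7.02% held the GAS pattern, 23.3% the PU.1 core, 6.75% the AP-1 pattern and 2.98% the interferon regulatory factor core. A match is only a run of letters, and the motif windows were not tested against the fold changes.

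The genes whose profile over the 6 libraries came closest to each receptor were sought among 8609 named genes with a mean of at least 5 TPM, by the root mean square difference of centred log2(TPM + 1) values. Closest to Fcgr2b were Sorbs3, for a cytoskeletal adaptor (0.07 log2 units apart), Nfil3, for a transcription repressor (0.08), and Slc26a11, for an anion transporter (0.10). They rose by 0.99, 0.94 and 0.89 on the log2 scale (limma adjusted p = 0.0041, 0.0029 and 0.0049). The neighbours of every member were chosen by their values in these same libraries, so their directions and calls are not separate evidence. Closest to Fcgr3 were Rnaset2a, for a lysosomal ribonuclease, Scarb2, for a lysosomal membrane protein, and Lpcat2, for a phospholipid-making enzyme (0.03 to 0.04 log2 units). Rnaset2a and Lpcat2 passed (adjusted p = 0.025 and 0.039), though not without Visomitin 2, Visomitin 3 or any of the control libraries, and Scarb2 did not (0.051). Lpcat2 also missed the threshold without the variance trend (0.078) and when low genes were kept in (0.064). Rnaset2a has a near-identical neighbour gene, so its level is uncertain.

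For the other members no neighbour but 1 passed. Closest to Fcgr4 were Ube2h, for a ubiquitin-conjugating enzyme, Blnk, an adaptor also in the activating list, and Akap13, for a scaffold protein (0.02 to 0.03 log2 units). Closest to Fcgr1 were Xrcc6 and Cdt1, which act in DNA repair and replication, and Dhodh, for an enzyme of pyrimidine synthesis (0.04 log2 units). Closest to Fcgrt were Abtb1, Csf3r, the receptor for granulocyte colony-stimulating factor, and the mitophagy kinase gene Pink1 (0.04 to 0.06 log2 units), of which Pink1 rose (0.50, limma adjusted p = 0.049; 0.076 to 0.16 without Visomitin 1, Visomitin 2 or any of the control libraries). Pink1 also missed the threshold with no filter on low values (0.13), without the variance trend (0.078), with a pseudocount of 0.1 TPM (0.051) and without mitochondrially encoded genes (0.0502). Among the members themselves, Fcgr3 and Fcgrt (0.12) and Fcgr3 and Fcgr4 (0.12) were the most alike, and Fcgr1 and Fcgr2b (0.63) the least.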

How the data were processed

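The 6 RNA sequencing libraries were analysed. Per the labels' protocols, TRIzol RNA was cleared of DNA and sequenced as stranded mRNA libraries; per the submitters' processing notes, fastp, HISAT2 and StringTie were used. The sources used here do not give versions, genome build, annotation or how reads matching several genes were handled. The values deposited are TPM, which the authors computed per gene and library, so that each library sums to the same total; depth is unknown, and no counting interval can be given. Values were used as deposited. Symbols came from a reference table (51884 of 57180 identifiers matched).

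Genes reaching 1 TPM in 3 or more libraries (11753) were fitted on log2(TPM + 1) with limma 3.58.1 in R 4.3.3 (eBayes with a trend, statmod 1.5.0, group as the only term), two-sided, with Benjamini-Hochberg adjustment at 0.05. Between 11551 and 11821 genes reached 1 TPM per library, and at most 0.391% of tested genes had identical values in any pair of libraries. The fit was tested on simulated data. Ratios of Fcgr2b were taken in each library, with exact permutation tests. Sequence words came from GENCODE M21 and upstream windows from RefSeq. The 5 members and all gene lists were chosen with earlier results of these data known. Genes named by rule are the members, up to 6 passing genes and the most abundant gene of each list, the cluster's neighbours and the 3 nearest profiles. Others are marked, apart from cell type markers. Alternatives were 2 pseudocounts, 2 filters, 2 scalings, mitochondrial genes left out, no trend, array weights, a replicate block and leaving out each library. The labels state no pairing of library numbers. Protein sequences were not used here, and 1 marker gene is not reported here.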

Additional observations from a re-analysis of the deposited data

How the results depend on the processing

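Log2 fold changes under the 16 alternatives were compared for 63 genes, those named by rule and all tested osteoclast, macrophage and B cell markers. The 10 osteoclast markers kept their calls under every alternative. Of 1004 values, 894 kept their direction and side of the threshold, 75 lost the call, 29 gained one and 6 changed sign. Those that changed sign were Ptpn6, at 0.034 after median-ratio scaling, 0.041 after quantile normalization, 0.021 with array weights and -0.061 to 0.047 with 1 library left out, and Csf1r, at -0.091 to 0.28 with 1 library left out; neither passed. Array weights called 2835 genes in all, 4 receptors, 8 activating, 3 inhibitory, 5 uptake, 3 immunoglobulin-binding and 7 regulator genes. With no filter on low values these were 381 genes in all, 1 receptor and 2 regulators, and without the trend 1 receptor and 2 regulators. The inhibitory list had 2 calls after quantile normalization and 1 with median-ratio scaling, and the immunoglobulin-binding list 1 with a pseudocount of 5 and 1 without mitochondrially encoded genes. The cause of these shifts was not tested. Leaving out 1 library gave 309 to 981 genes, 1 to 2 receptors, 2 to 4 activating, 0 inhibitory, 1 to 4 uptake, 0 to 1 immunoglobulin-binding and 1 to 4 regulator genes; such fits have fewer residual degrees of freedom. With the library number as a replicate block, 1107 genes and 3 receptors passed, Fcgrt being added (adjusted p = 0.032); residual correlations within a number were 0.05, 0.02 and 0.17, so the numbers were not taken as pairs. The block left the ratios at 0.58 to the sum, 0.56 to Fcgr3, 0.65 to Fcgr4 and 1.23 to Fcgr1. TPM keep no depth, so 3 libraries per group limit the precision.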
